A study of Mus musculus with 74 samples.

Results

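The difference between line 3205 and its parent RAW264.7 in the transcriptional response to 60 min of lipopolysaccharide (LPS) was measured for every gene of the RNA table with enough reads. For each gene it is the change at 60 min over 0 min in 3205 minus the same change in RAW264.7, on the log2 scale, so that a positive value is a larger increase or a smaller decrease in 3205. The genes were taken by level alone, as those with a mean of at least 1 normalized read over the 12 libraries of the table, which 17301 of 24851 genes passed. The lowest gene inside this limit, Gm7613, had a mean of 1.0009 normalized reads, and the highest gene outside it, Gm11533, one of 0.999.

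The series holds 74 samples of RNA sequencing and chromatin immunoprecipitation on the role of the replacement histone H3.3 and of its phosphorylation in macrophages given LPS. RAW264.7 is a macrophage-like mouse tumour line, here the wild type, and its RNA was sequenced with that of derived lines in which the H3.3 genes H3f3a and H3f3b were made hypomorphic or knocked out by CRISPR. The 4 groups compared were 3205 at 60 min of LPS, 3205 with no LPS (0 min), RAW264.7 at 60 min and RAW264.7 at 0 min, with 2 libraries each, and line 264 was sequenced in the same way. The labels name the lines by number only and do not say which number is a hypomorph and which a knockout, how many clones each stands for, or how much LPS the lines received (S. typhosa LPS at 100.0 ng/mL is given for primary macrophages). The tissue label of these libraries reads bone marrow derived macrophage, while their source is the RAW264.7 line. Nothing states that the 2 libraries of a group came from separate cultures, so a p-value covers only the spread among these libraries, which may be technical.

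LPS from the outer membrane of Gram-negative bacteria binds the receptor TLR4 and, through NF-kB, MAP kinases and interferon regulatory factors, switches on a large set of genes in macrophages. The first wave holds transcription factors of the immediate early type, cytokines, and the brakes of the pathway itself: inhibitors of NF-kB, phosphatases of MAP kinases and factors that destroy cytokine mRNA. Histone H3.3 is placed on transcribed genes outside DNA replication. Among its serines near the start, the one phosphorylated in H3S31ph is absent from the other H3 forms. The H3S31ph mark appears on genes induced by LPS.

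The 8 libraries held 13084927 to 53860392 reads and 16108 to 18894 genes with a read. Values are normalized reads, a gene's reads divided by 1 size factor per library, as the authors deposited them. The targeted gene H3f3a had 58.2 and 56.7 normalized reads in 3205 and 2578 and 2445 in RAW264.7 at 60 min, and 76.2 and 63.4 in 3205 and 2926 and 2055 in RAW264.7 at 0 min. It was lower in 3205 at both times, with a log2 fold change over RAW264.7 of -5.43 ± 0.22 (SE) at 60 min and -5.12 ± 0.22 at 0 min by limma, and reads of it remained. H3f3b had 11401 and 12274 normalized reads in 3205 and 29823 and 30051 in RAW264.7 at 60 min, and 7177 and 7437 in 3205 and 15367 and 13623 in RAW264.7 at 0 min, with log2 fold changes over RAW264.7 of -1.34 at 60 min and -0.99 at 0 min, both past the threshold. In line 264, H3f3a had 172 and 226 normalized reads at 60 min and 188 and 236 at 0 min. H3f3a and H3f3b have processed pseudogenes and resemble each other, and the sources used here do not say how reads that fit several places were counted. All 10 macrophage markers were measured, with a summed level of 206450 to 256000 normalized reads in 3205 and 375610 to 492120 in RAW264.7. Neutrophil markers summed to 2374 to 2919 normalized reads in 3205 and 284 to 327 in RAW264.7, of which the cytokine receptor gene Csf3r made up the largest part, while the neutrophil markers Ly6g, S100a9 and Ngp had no read in any of the 8 libraries. In bulk RNA, a different share of cells of a type and a different amount of RNA per cell cannot be told apart. Summed osteoclast markers were 6132 to 7982 in 3205 and 4723 to 8189 in RAW264.7. Summed B cell markers were 2372 to 2875 in 3205 and 1029 to 1470 in RAW264.7, nearly all of it the adaptor gene Blnk, and summed markers of T and NK cells, fibroblasts and dendritic cells stayed at or below 236 in both lines. Their part in the response differences was not tested.

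Both lines answered LPS. By limma with Benjamini-Hochberg adjustment over 17301 genes and a threshold of 0.05, 164 genes rose (0.948%) and 48 fell (0.277%) in 3205, and 287 rose (1.66%) and 228 fell (1.32%) in RAW264.7. The lines also differed at each time, at 2666 genes at 60 min (15.4%) and 2476 at 0 min (14.3%). Over all genes the median response difference was 0.01 on the log2 scale, with 8942 genes above and 8351 below 0. The response difference itself passed the same test at 1 gene, Bhlhe40, whose difference was below 0, or 0.00578% of genes tested, and at 0 genes with a difference above 0. At an unadjusted p below 0.05 there were 427 genes, 2.47% of those tested. Of these, 249 (1.44%) had a larger and 178 (1.03%) a smaller value in 3205. About 865 genes (5%) would be expected at that p if no gene differed, so the 427 are no excess. The design limits this count: the median standard error was 0.40, so a lone gene of median error needed a log2 difference of 3.86 to pass, and 2.59 among the 11665 genes with a mean of at least 50 in their highest group.

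Libraries with the same replicate number shared deviations from their group means, so the fit was repeated with the replicate number as a block. With that block 14 genes passed (0.0809% of 17301), 6 with a difference above 0 (0.0347%) and 8 with one below 0 (0.0462%). edgeR's quasi-likelihood test on the recovered whole reads called 1 gene (0.00578%) without and 15 with the block (0.0867%), and DESeq2 called 22 (0.154% of the 14282 genes to which it gave an adjusted p), 9 above 0 (0.063%) and 13 below (0.091%). Of the 14 genes of the limma block fit, all 14 were among the 15 of edgeR with the block, and 12 among the 22 of DESeq2. In all, 25 genes were called by at least 1 of these fits, 10 above 0 and 15 below, and of these 24 are described below by role, chosen after their values were seen. In every one of the 25 the single-library responses of 3205 and RAW264.7 did not overlap. This is no separate support, because the 25 were chosen by tests on these same libraries. Over all genes it held for 2033, or 11.8%.

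**Figure D1:**
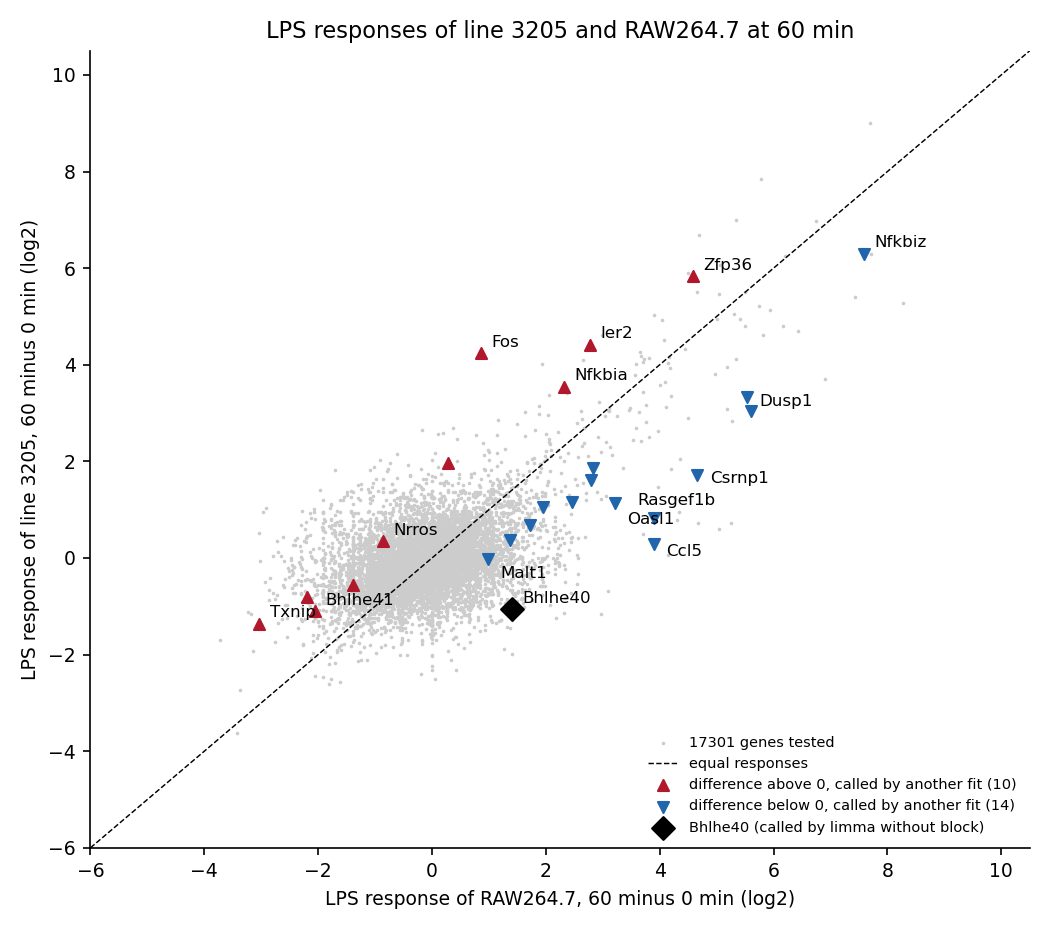
LPS response at 60 min in line 3205 (vertical axis) against that in RAW264.7 (horizontal axis), each the log2 change over 0 min, for 17301 genes in grey. Bhlhe40 (black diamond) fell in 3205 and rose in RAW264.7, 10 genes (red) lie above and 14 (blue) below the dashed line of equal responses by the replicate-block, edgeR or DESeq2 fits.

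Bhlhe40 encodes a basic helix-loop-helix repressor of the circadian family that in mouse macrophages restrains the anti-inflammatory cytokine gene Il10. The gene lies on chromosome 6 at 108660629 to 108666925 (GRCm38.p6). It had 596 and 651 normalized reads at 60 min and 1339 and 1271 at 0 min in 3205, against 1750.2 and 1909 at 60 min and 727 and 659 at 0 min in RAW264.7. It fell after LPS in 3205, with a limma log2 fold change of -1.06, and rose in RAW264.7, with one of 1.3996, and neither the levels at 60 min nor those at 0 min of the 2 lines overlapped. The response difference was -2.46 ± 0.23 with a 95% interval of -2.97 to -1.96 (adjusted p = 0.016 by limma, and 0.0023 when the block is added). It was -2.43 within replicate 1 and -2.50 within replicate 2. When any 1 of the 8 libraries was left out the difference stayed between -2.54 and -2.39, but the limma adjusted p lay between 0.054 and 0.19, so that the call was lost each time. Bhlhe41, the close relative of Bhlhe40, had 1282 and 1150.1 normalized reads at 60 min and 2725 and 2477 at 0 min in 3205, against 479 and 465 at 60 min and 1861 and 2066 at 0 min in RAW264.7. Bhlhe41 fell in both lines, with a limma log2 fold change of -1.10 in 3205 and -2.05 in RAW264.7. The smaller decrease in 3205, 0.96 ± 0.17, passed by DESeq2 (adjusted p = 0.0017) and not by limma (0.41, or 0.075 with the block).

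Among the other immediate early genes, Fos, which encodes a subunit of the AP-1 transcription factor, had 7641 and 6237 normalized reads in 3205 and 3843 and 3733 in RAW264.7 at 60 min, and 383 and 347 in 3205 and 2823 and 1544 in RAW264.7 at 0 min. The 60 min levels in 3205 lay above those of RAW264.7, and the 0 min levels far below them. The 60 min difference between the lines did not pass (limma adjusted p = 0.24, or 0.16 with the block). Fos rose by 4.24 in 3205 (limma adjusted p = 0.00089), against 0.86 in RAW264.7 (adjusted p = 0.49), a difference of 3.38 ± 0.63 that DESeq2 called (adjusted p = 3.79e-05) and limma did not (0.41, or 0.13 with the block). Ier2, an immediate early nuclear regulator, had 16395 and 15901 normalized reads at 60 min in 3205, against 9897 and 13386 in RAW264.7, and 702 and 811 at 0 min in 3205, against 1617 and 1746 in RAW264.7. Here too 3205 was lower at rest in both libraries and higher after LPS. The 60 min difference between the lines passed with the block (limma adjusted p = 0.021) and not without it (0.16). The response difference of 1.64 ± 0.29 passed with the replicate block (limma adjusted p = 0.017, against 0.41 without it). Csrnp1, a nuclear protein gene of the AXIN1-induced type, had 2394 and 1861 normalized reads at 60 min in 3205, against 13629 and 14664 in RAW264.7, and 758 and 538 at 0 min in 3205, against 551 and 567 in RAW264.7. Its levels at rest were close, with a 3205 minus RAW264.7 log2 difference of 0.19, and at 60 min it was -2.74. The response difference of -2.94 ± 0.43 passed with the block (limma adjusted p = 0.018, against 0.14 without it). Egr1, an immediate early zinc finger activator, had 281 and 174 normalized reads in 3205 and 45903 and 53618 in RAW264.7 at 60 min, and 4.28 and 3.59 in 3205 and 1600.4 and 2399 in RAW264.7 at 0 min. Its log2 difference between the lines was -8.64 at 0 min (limma adjusted p = 6.35e-07), while its response difference was 0.83 ± 0.38, with a 95% interval of -0.03 to 1.69, and did not pass. Of the 28 immediate early transcription factors tested, 19 had a value above 0 and 9 below, with a median of 0.31 against 0.01 over all genes. Without the block 1 passed by limma, with a difference below 0 (Bhlhe40), and with the block 1 passed in each direction (Ier2 and Bhlhe40). Csrnp1 was not on this list.

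Calls among the brakes of the pathway, made with the block, went in both directions. Dusp1, the phosphatase that switches off the MAP kinases p38 and JNK, had 9559 and 8271 normalized reads at 60 min and 1043 and 752 at 0 min in 3205, against 10528 and 9890.4 at 60 min and 243 and 200.3 at 0 min in RAW264.7. The 60 min levels of 3205 lay slightly below those of RAW264.7, with a log2 difference of -0.20 that did not pass (limma adjusted p = 0.59), and the level at rest was higher in 3205 by 2.001 (0.00016). The response difference was -2.20 ± 0.29 and passed with the block (limma adjusted p = 0.017, against 0.13 without it). Nfkbia, which encodes the NF-kB inhibitor IkB alpha, had 20368 and 23303 normalized reads at 60 min and 1650.4 and 2105 at 0 min in 3205, against 21259 and 20665 at 60 min and 4245 and 4174 at 0 min in RAW264.7. Its 60 min levels overlapped between the lines, its levels at rest were lower in 3205 with a log2 difference of -1.17, and its response was larger by 1.23 ± 0.18 (limma adjusted p = 0.017 with the block and 0.14 without). Zfp36, whose product tristetraprolin destroys cytokine mRNA, had 40998 and 49291 normalized reads in 3205 and 34708 and 37729 in RAW264.7 at 60 min, and 652 and 955 in 3205 and 1315 and 1732 in RAW264.7 at 0 min. Its libraries did not overlap at either time, 3205 being the higher line after LPS and the lower one at rest. The 60 min log2 difference between the lines, 0.31, did not pass (limma adjusted p = 0.37, or 0.060 with the block). The larger response of 1.25 ± 0.29 passed with the block (limma adjusted p = 0.020, against 0.94 without it) and not by DESeq2 (0.064).

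The sequences before the starts of 4 of these regulators are shown because all 4 govern the early response and their response differences had opposite signs: Dusp1 was on the smaller side, and Zfp36, Nfkbia and Fos were on the larger. Each is the 200 bases before the annotated start from RefSeq (GRCm38.p6), in the gene's own direction, with motif matches in capitals.
Dusp1, chr17:26508473-26508672, minus strand: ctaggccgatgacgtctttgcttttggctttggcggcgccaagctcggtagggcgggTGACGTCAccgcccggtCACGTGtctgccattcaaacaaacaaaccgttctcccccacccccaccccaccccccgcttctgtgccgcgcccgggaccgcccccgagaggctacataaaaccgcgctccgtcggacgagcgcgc
Zfp36, chr7:28379229-28379428, minus strand: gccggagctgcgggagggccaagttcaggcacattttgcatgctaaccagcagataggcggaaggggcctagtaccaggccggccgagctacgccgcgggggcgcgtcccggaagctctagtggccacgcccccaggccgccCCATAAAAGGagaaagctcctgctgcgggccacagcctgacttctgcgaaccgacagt
Nfkbia, chr12:55492648-55492847, minus strand: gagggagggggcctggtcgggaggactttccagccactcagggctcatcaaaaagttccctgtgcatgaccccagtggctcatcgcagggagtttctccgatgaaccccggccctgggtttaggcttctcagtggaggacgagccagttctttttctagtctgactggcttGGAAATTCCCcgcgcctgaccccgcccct
Fos, chr12:85473690-85473889, plus strand: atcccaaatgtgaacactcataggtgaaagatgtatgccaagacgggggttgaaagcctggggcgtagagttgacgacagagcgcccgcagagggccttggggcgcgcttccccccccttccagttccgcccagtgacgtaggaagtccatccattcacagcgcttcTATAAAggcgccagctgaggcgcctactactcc
The search covered both strands for 7 motifs: AP-1 (TGANTCA), the cyclic AMP element (TGACGTCA), the TATA box (TATAAA), the E-box (CACGTG), and, by name, the interferon regulatory factor element, the NF-kB consensus and the serum response element. The Dusp1 window held a cyclic AMP element 143 to 136 bases and an E-box 126 to 121 bases before the start, the Zfp36 window a serum response element at 58 to 49 bases, the Nfkbia window an NF-kB match on the other strand at 29 to 20 bases, and the Fos window a TATA box at 33 to 28 bases. No match overlapped one of another motif in these windows. Over the 5788 tested genes with a promoter in the table, the shares with a match were 2.73% for the cyclic AMP element, 7.45% for the E-box, 0.898% for the serum response element, 3.84% for NF-kB and 5.82% for the TATA box. Of 24 genes called with the limma block or by DESeq2, 11 had an entry, and Bhlhe40, Ier2 and Malt1 did not.

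The NF-kB pathway as a list had 37 genes tested, 18 above and 19 below 0, with a median of -0.01, and Nfkbia was the 1 member called with the block, while DESeq2 called 1 larger and 3 smaller. The 3 were Cflar, the caspase 8 inhibitor c-FLIP, Peli1, a ubiquitin ligase of Toll-like receptor signalling, and Nfkbiz, which encodes the co-activator IkB zeta. Cflar had 10259 and 11780 normalized reads at 60 min in 3205, against 23107 and 21758 in RAW264.7, and 2748 and 3291 at 0 min in 3205, against 2997 and 3356 in RAW264.7. It rose in both lines, and the levels at rest overlapped, with a response difference of -0.95 ± 0.20 (DESeq2 adjusted p = 0.011, limma 0.55). Nfkbiz had 50257 and 43211 normalized reads at 60 min in 3205, against 77592 and 83488 in RAW264.7, and 702 and 497 at 0 min in 3205, against 426 and 412 in RAW264.7. Its difference was -1.28 ± 0.29 (DESeq2 adjusted p = 0.041, limma 0.94), and Peli1 had a difference of -1.05 ± 0.22 (DESeq2 adjusted p = 0.011). For these 3 genes the 60 min levels in 3205 all lay below those of RAW264.7. Malt1, the paracaspase that carries antigen and lectin receptor signals to NF-kB, had 1828 and 1694 normalized reads in 3205 and 4802 and 4642 in RAW264.7 at 60 min, and 1843 and 1738 in 3205 and 2501 and 2295 in RAW264.7 at 0 min. It passed no test for a response in 3205 (limma log2 fold change -0.02, adjusted p = 1) and rose in RAW264.7 by 0.98 (0.00059). The difference of -1.003 ± 0.14 passed with the block (limma adjusted p = 0.017, against 0.14 without it). Malt1 was not on the NF-kB list. Tnfaip3, which encodes the NF-kB brake A20, rose by 5.50 in 3205 and 5.50 in RAW264.7, and its difference of 0.00 ± 0.28 had a 95% interval of -0.62 to 0.62, which leaves out a difference of 1 in either direction.

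**Figure D2:**
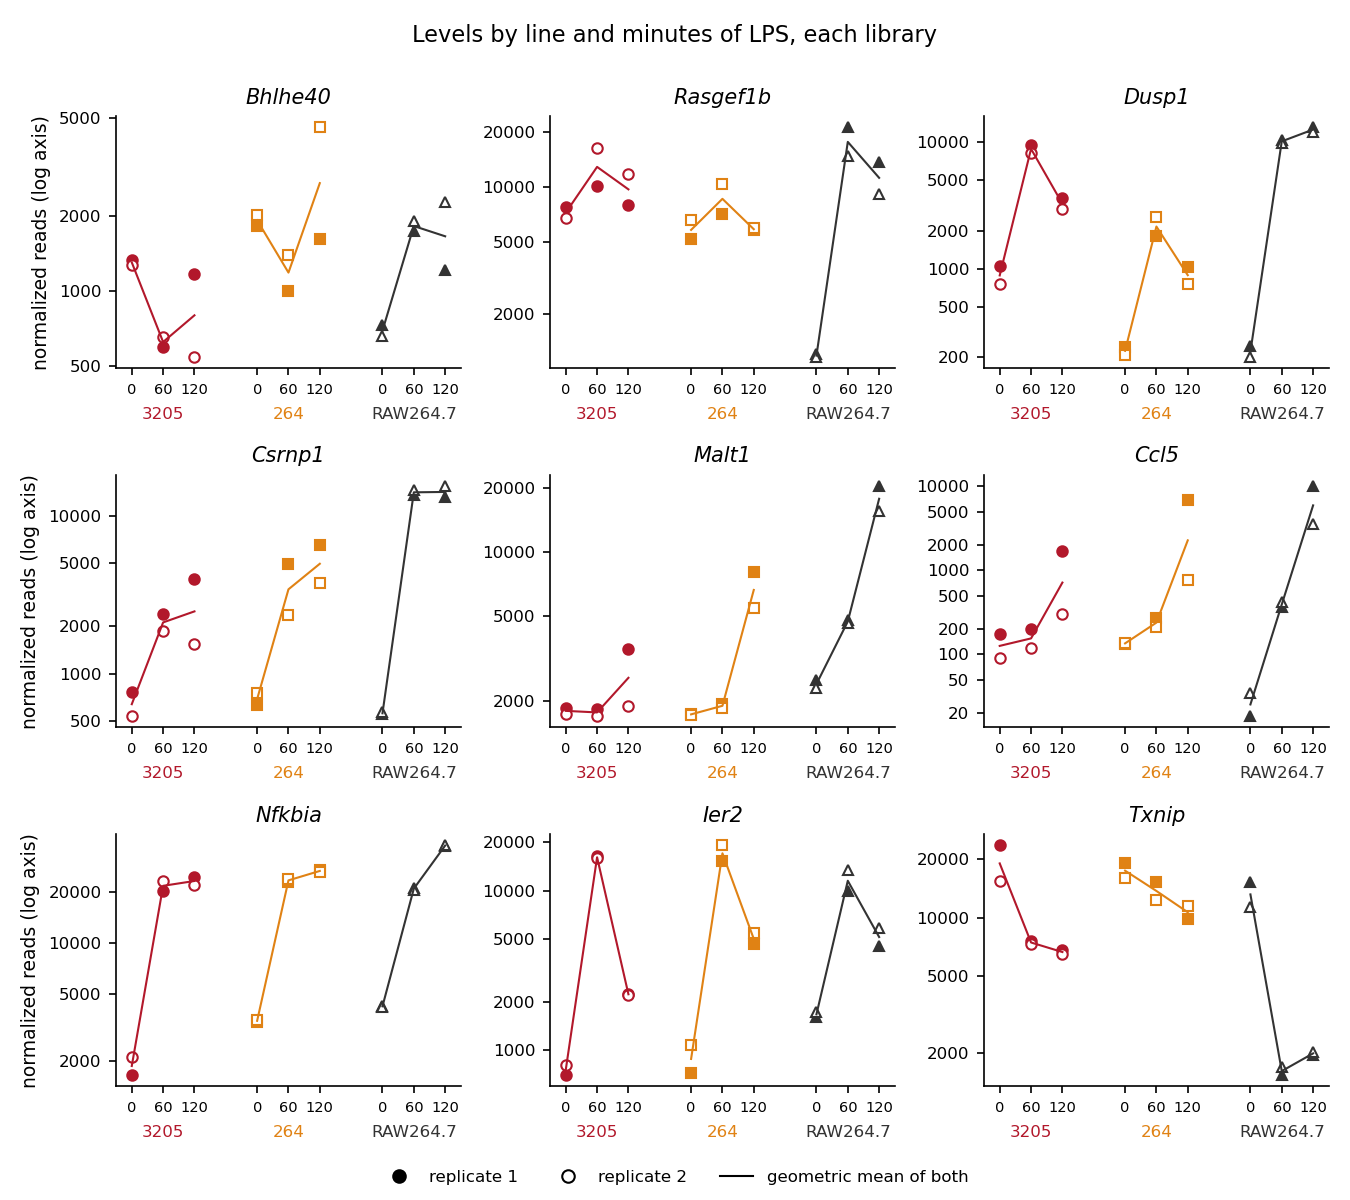
Normalized reads (log axis) of 9 genes at 0, 60 and 120 min of LPS in lines 3205, 264 and RAW264.7, with replicate 1 filled, replicate 2 open and lines through the geometric means. Dusp1 and Nfkbia reached like levels in 3205 and RAW264.7 at 60 min from different levels at rest, while Bhlhe40, Csrnp1 and Malt1 were lower in 3205 at 60 min.

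Of the 31 cytokine genes tested, 8 had a difference above 0 and 23 below, with a median of -0.62, and the 20 secondary response genes, which need new protein or chromatin remodelling, had 5 above and 15 below with a median of -0.78. Both lists hold Ccl5 and Il6. With the replicate block 1 member passed, the chemokine gene Ccl5, with a smaller response. It had 199.7 and 120.3 normalized reads at 60 min and 175 and 90.9 at 0 min in 3205, against 371 and 417 at 60 min and 18.5 and 34.7 at 0 min in RAW264.7. Ccl5 was higher in 3205 at rest in both libraries and lower at 60 min, and its response of 0.29 in 3205 (limma adjusted p = 1) stood against 3.90 in RAW264.7 (0.00053). The difference of -3.61 ± 0.56 had a limma adjusted p of 0.048 with the block and 0.18 without. Il6 rested on few reads: 2 in the 3205 libraries at 60 min against 26 in those of RAW264.7, which is 38.5-fold lower in 3205 with a counting interval of 9.64 to 335, and no read in either line at 0 min. RAW264.7 thus had at least 14.7-fold more Il6 at 60 min than a floor of 3 reads over its 0 min libraries, and no fold can be given for 3205. Counting intervals and floors cover counting error only.

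Tnf, the early inflammatory cytokine, had 51154 and 79145 normalized reads in 3205 and 96753 and 102680 in RAW264.7 at 60 min, and 333 and 747 in 3205 and 2059.8 and 2925 in RAW264.7 at 0 min. It rose in both lines, from a lower level in 3205, and its difference of 1.65 ± 0.53 (95% interval 0.46 to 2.84) did not pass (limma adjusted p = 1, or 0.14 with the block). Ccl4, a macrophage chemokine, had 1567 and 3088 normalized reads in 3205 and 50945 and 43237 in RAW264.7 at 60 min, and 155 and 428 in 3205 and 1600.4 and 1051 in RAW264.7 at 0 min, lower in 3205 at both times, and a difference of -2.09 ± 0.69 that did not pass either (1 by limma). The difference was 1.31 ± 0.62 for Cxcl2, 0.05 ± 0.74 for Cxcl10, -1.405 ± 1.60 for Il1b, -3.00 ± 1.41 for Ifnb1 and 0.11 ± 2.21 for Nos2, and none of these passed in any fit. Their 95% intervals all included 0 and reached from -6.16 to 0.16 for Ifnb1 and from -4.84 to 5.06 for Nos2. A large difference below 0 in Ifnb1, and one in either direction in Nos2, was thus neither shown nor excluded. Il12b had no read. Among 39 interferon-stimulated genes, 8 were above and 31 below 0 with a median of -0.15, and DESeq2 called 1, Oasl1, whose product blocks translation of the interferon factor IRF7 in mice. Oasl1 had 5821 and 4548 normalized reads at 60 min in 3205, against 20737 and 19086 in RAW264.7, and 2013 and 2728 at 0 min in 3205, against 2025 and 2288 in RAW264.7, with 60 min levels in 3205 below those of RAW264.7 and levels at rest that overlapped. Its difference was -2.07 ± 0.48 (DESeq2 adjusted p = 0.021, limma 0.94).

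**Figure D3:**
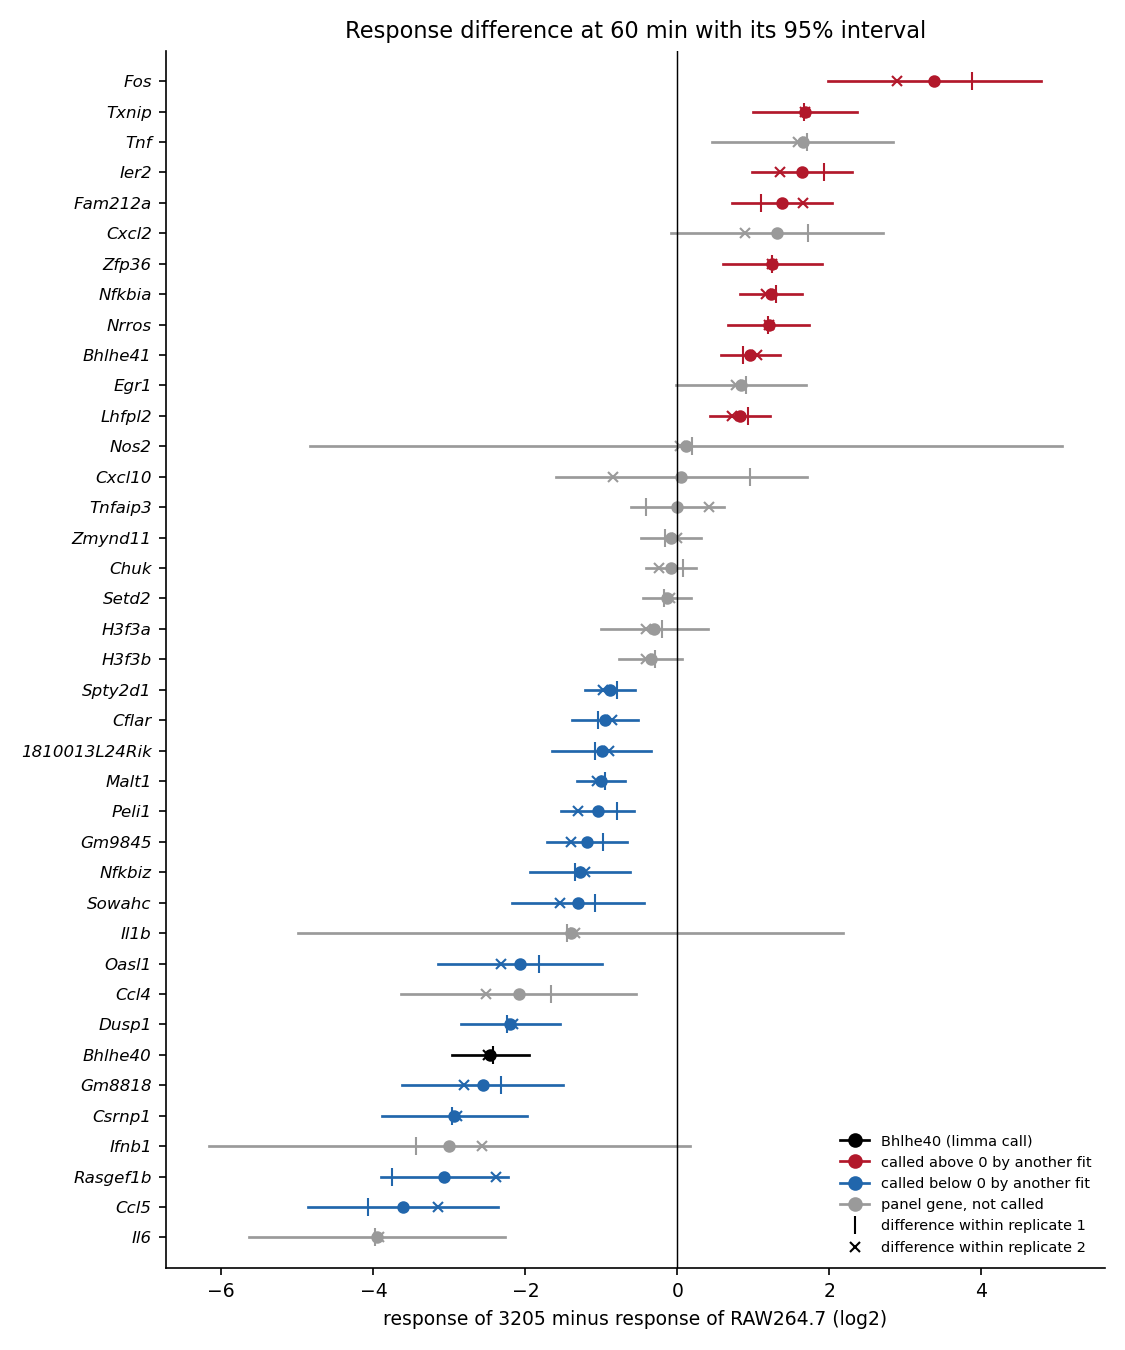
Response of 3205 minus response of RAW264.7 at 60 min (log2, circle) with its 95% interval from limma for 39 genes, and the difference within replicate 1 (bar) and replicate 2 (cross). All 24 called genes shown had both within-replicate values on the same side of 0, which is no separate support because the difference is the mean of the 2. The intervals of Il1b, Ifnb1 and Nos2 spanned several log2 units.

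Several of the called genes lie outside the inflammatory lists. Rasgef1b, an exchange factor for the small GTPase Rap2 that is induced in macrophages by Toll-like receptor ligands, had 10167 and 16351 normalized reads at 60 min and 7746 and 6734 at 0 min in 3205, against 21240 and 14741 at 60 min and 1203 and 1162 at 0 min in RAW264.7. Its 60 min levels overlapped, and its level at rest was higher in 3205 with a log2 difference of 2.61. The response was 0.84 in 3205 (limma adjusted p = 0.31) and 3.90 in RAW264.7 (3.08e-05). Its difference of -3.07 ± 0.38 passed with the block (limma adjusted p = 0.017, against 0.10 without it). Within replicates it was -3.75 and -2.38.

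Txnip, an inhibitor of thioredoxin and of glucose uptake, was lowered by LPS in both lines. It had 7557 and 7335 normalized reads at 60 min in 3205, against 1539 and 1687 in RAW264.7, and 23625 and 15414 at 0 min in 3205, against 15315 and 11368 in RAW264.7, a limma log2 fold change of -1.36 in 3205 (adjusted p = 0.013) and -3.03 in RAW264.7 (4.04e-05). The levels at rest were 0.53 apart on the log2 scale and those at 60 min 2.21, and the difference of 1.67 ± 0.31 passed with the block (limma adjusted p = 0.022, against 0.41 without it). Nrros, a transmembrane protein gene of myeloid cells that restrains reactive oxygen and holds latent TGF-beta, had 8471 and 10799 normalized reads in 3205 and 3931 and 4441 in RAW264.7 at 60 min, and 6635 and 8548 in 3205 and 7058 and 8123 in RAW264.7 at 0 min. Its log2 response was 0.34 in 3205 (limma adjusted p = 0.76), against -0.86 in RAW264.7 (0.024), where it fell, with a difference of 1.20 ± 0.24 (limma adjusted p = 0.017 with the block and 0.52 without). Spty2d1, which encodes a chaperone of histones H3 and H4, had 2516 and 2397 normalized reads at 60 min in 3205, against 5473 and 5782 in RAW264.7, and 1159 and 1192 at 0 min in 3205, against 1448 and 1458 in RAW264.7. It rose in both lines, with a difference of -0.89 ± 0.15 (limma adjusted p = 0.048 with the block and 0.28 without). Further called genes were Lhfpl2 (0.82) and Fam212a (1.38) with a larger value in 3205, by DESeq2. On the smaller side were Gm8818 (-2.56) and Gm9845 (-1.19) by DESeq2, 1810013L24Rik (-0.997) with the limma block, and Sowahc (-1.31) by edgeR with the block. Cbx2, a Polycomb gene, had no read in any of the 4 libraries of 3205, so its value of 2.47 ± 0.51 is the decrease in RAW264.7 with its sign turned, and no fit called it.

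The H3.3 genes, their chaperones and factors of H3K36 methylation showed no called difference among 26 tested, with a median of 0.01 and 15 above and 11 below 0. The difference was -0.30 ± 0.32 for H3f3a and -0.35 ± 0.18 for H3f3b. Setd2, the H3K36 trimethylase, had a difference of -0.14 ± 0.14 with a 95% interval of -0.45 to 0.18. Zmynd11, a reader of trimethylated H3.3K36, had -0.08 ± 0.18, and Chuk, which encodes the kinase IKK alpha, -0.09 ± 0.15 with an interval of -0.42 to 0.24.

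The remaining lists gave few calls. Among the 14 MAP kinase phosphatases and Sprouty genes the median was -0.14 with Dusp1 the 1 block call, and among 13 factors of inflammatory mRNA decay it was -0.11 with Zfp36 the 1 block call. The 32 genes of the LPS receptor and TLR4 signalling had a median of -0.04 and no call. Cell cycle genes had a median of 0.19, with 27 of 32 above 0, and no call by limma with or without the block. The 12 mitochondrially encoded genes had a median of 0.50, with 10 above 0 and no call. Their share of all reads was 0.309% to 0.615% in the replicate 1 libraries and 1.16% to 1.70% in the replicate 2 libraries, the same split in every group. Of the genes that the authors' deposited table lists as raised by LPS in primary macrophages, 176 were tested. Their median difference was -0.28 with 65 above and 111 below 0, and with the block 3 passed above and 5 below, against the 0.0347% and 0.0462% of all genes given above. At an unadjusted p below 0.05 by limma, 10 of the 176 had a larger value in 3205 and 35 a smaller one, against 1.44% and 1.03% of all genes. The 176 had a median response of 1.32 in 3205 and 1.93 in RAW264.7, against -0.004 and -0.002 over all genes. The shares of all genes are thus those of genes that mostly did not respond. Genes raised in line 264 gave a median of -0.07 over 142 genes (0.821% of those tested), from a median response of 2.02 in 3205 and 2.08 in RAW264.7. The contrast does not hold the libraries of 264, but the error of the fit does. Of the 142, 12 had a larger value in 3205 at an unadjusted p below 0.05 and 24 a smaller one, and with the block 4 passed above 0 and 3 below. Their responses in the lines had a Spearman correlation of 0.88 across these genes, which are not independent replicates, and the middle 50% of their differences ran from -0.56 to 0.29. The 64 genes lowered by LPS in line 264 (0.37%) gave a median difference of 0.30, with 45 above and 19 below 0, from a median response of -0.99 in 3205 and -1.34 in RAW264.7. Of them 19 had a larger value in 3205 at an unadjusted p below 0.05 by limma and 2 a smaller one, and none passed after adjustment. DESeq2 called 2 of them, Bhlhe41 and Fam212a. Both 264 lists were chosen by calls in the same fit, which shares 1 error per gene among its contrasts. Such a choice favours genes of small error, so the counts by p in these lists cannot be set against the shares of all genes.

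**Figure D4:**
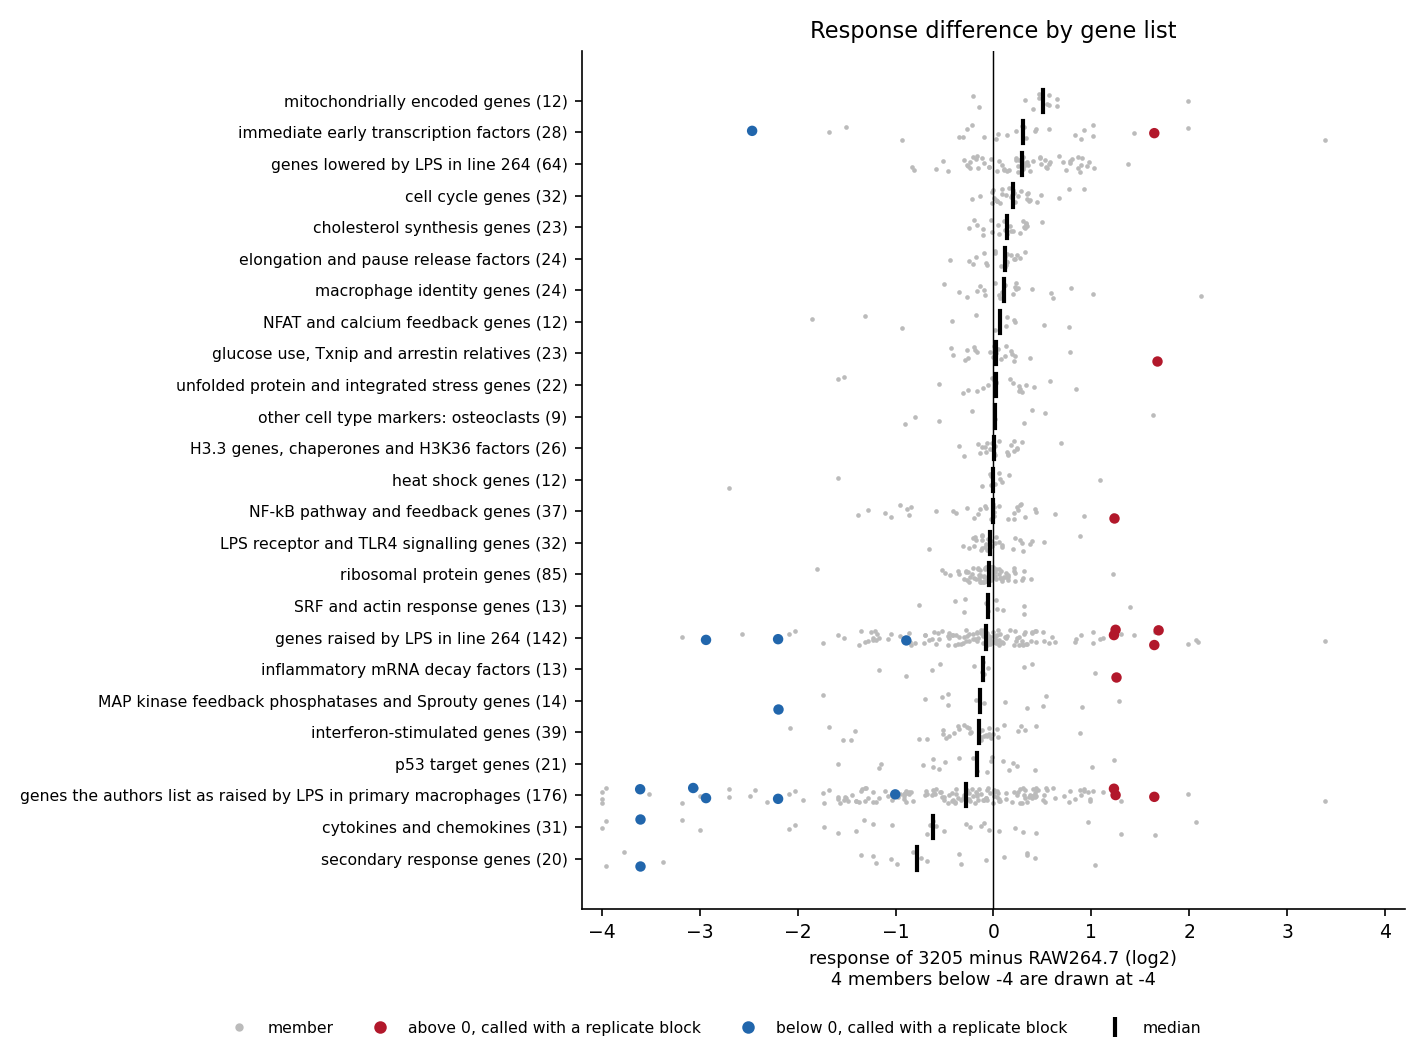
Response of 3205 minus response of RAW264.7 (log2) for the members of 25 gene lists with at least 9 genes tested (number in brackets), with the median as a black bar and members called with the replicate block in red (above 0) or blue (below 0). The medians of cytokines and secondary response genes were the lowest, at -0.62 and -0.78, and most lists had a median near 0.

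Line 264 was set beside 3205 with the same control libraries, so the values are given side by side only. For Bhlhe40 the 264 minus RAW264.7 difference was -2.10 (limma adjusted p = 0.035), for Rasgef1b -3.33 (0.035) and for Txnip 2.68 (0.035), the 3 genes that passed there without the block (0.0173%). With the block 22 genes passed (0.127%). For Dusp1 it was -2.26 (limma adjusted p = 0.061, or 0.014 with the block), and 264 had 1812 and 2571 normalized reads of it at 60 min and 240.25 and 209 at 0 min, a different pair of levels than in 3205. Also called with the block and not without it were Ier2 at 1.497 (block adjusted p = 0.023 by limma), Zfp36 at 1.17 (0.026), Malt1 at -0.84 (0.025), Cflar at -1.24 (0.014), Nrros at 0.96 (0.033) and Spty2d1 at -0.98 (0.026). The difference was 3.73 for Fos, -2.34 for Csrnp1, -3.08 for Ccl5 and 0.45 for Nfkbia, none past the limma threshold in either fit. The direct test of 3205 against 264 called 0 genes (0%) by limma with or without the block. No response was therefore shown to be particular to 3205. At an unadjusted p below 0.05 by limma there were 126 genes (0.728%), where 5% would be expected if no gene differed. The estimate of the direct test was 0.78 ± 0.18 for Nfkbia, -1.01 ± 0.31 for Txnip and -0.36 ± 0.23 for Bhlhe40.

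At 120 min of LPS, measured in other libraries but against the same 0 min ones, the differences were -1.97 for Bhlhe40 (limma adjusted p = 0.86), -3.95 for Dusp1 (0.0028), -2.82 for Rasgef1b (0.053), -2.71 for Csrnp1 (0.31), -5.32 ± 1.45 for Ccl5 (0.59) and -2.38 for Malt1 (0.14). Of these 6, Dusp1 passed and the other five did not. Dusp1 had 1043 and 752 normalized reads at 0 min, 9559 and 8271 at 60 min and 3629 and 2948 at 120 min in 3205, against 13141 and 12179 at 120 min in RAW264.7. Among genes with a 60 min difference above 0, the 120 min difference was 2.10 for Fos and 1.21 for Txnip. It was -0.03 for Ier2, 0.48 for Nfkbia and 0.53 for Zfp36. None of these genes passed the limma threshold at 120 min. Bhlhe40 had 1174 and 542 normalized reads at 120 min in 3205 against 1212 and 2279 in RAW264.7, a spread between replicates that the 60 min libraries did not have.

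The gain of H3S31ph on a gene in primary macrophages, from 1 ChIP library per time, did not order the response differences. Over the 176 genes raised by LPS in the authors' deposited table, split by the 60 over 0 min ratio of H3S31ph into 3 parts, the median difference was -0.31 in the 59 genes with the lowest ratios (0.904 to 2.59), -0.17 in the 58 middle genes (2.60 to 5.78) and -0.42 in the 59 highest (5.78 to 29.8). Spearman's rho between ratio and difference was 0.02 across these genes. Block calls numbered 0 in the lowest part, 2 above and 1 below 0 in the middle part, and 1 above and 4 below in the highest part. Among the genes with high ratios, Nfkbia had a ratio of 24.8 and a difference of 1.23, and Rasgef1b a ratio of 21.5 and a difference of -3.07. The ratio was 17.4 for Nfkbiz, 16.5 for Malt1 and 16.1 for Csrnp1, all with a smaller response in 3205, and 2.45 for Fos, which had a larger one. Correlations with the ratios of H3S28ph, H3.3, H3K27ac, H3K36me3 and H3K36me2 ran from -0.08 to 0.14 over the same genes.

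**Figure D5:**
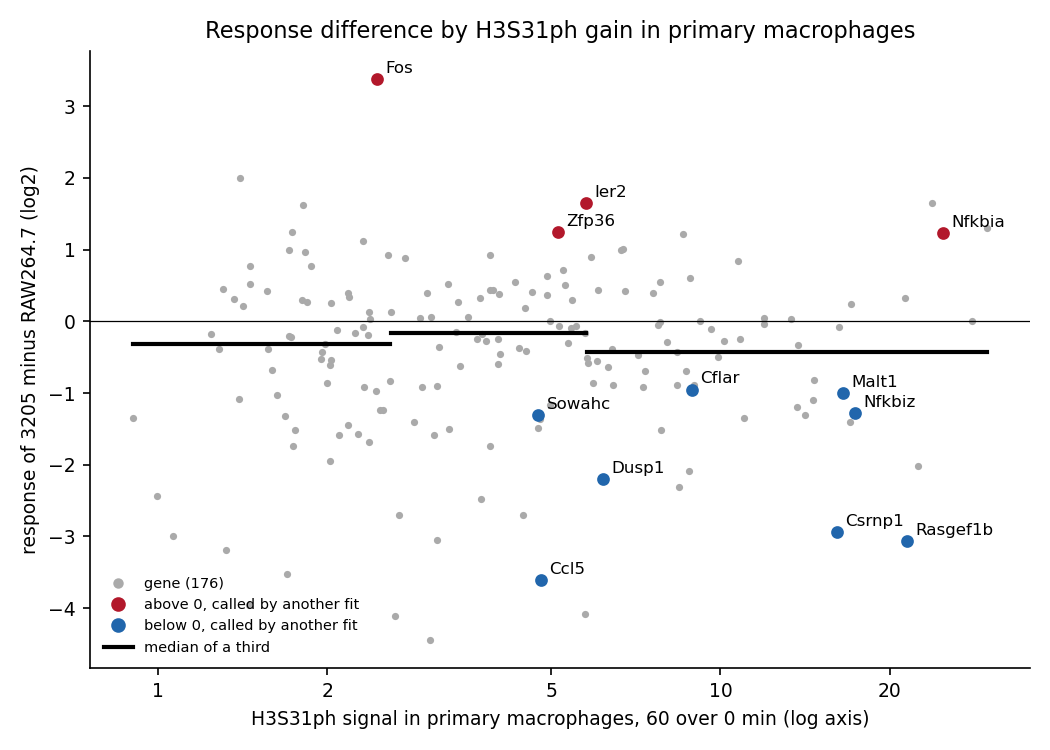
Response of 3205 minus response of RAW264.7 (log2, vertical axis) against the 60 over 0 min ratio of H3S31ph signal in primary macrophages (log axis) for 176 genes, with genes called by any of the fits in red (above 0) or blue (below 0) and the median of each of 3 parts as a black bar. The 3 medians were -0.31, -0.17 and -0.42, and genes with high ratios lay on both sides of 0.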

How the data were processed

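The RNA values of the cell lines are a signal per gene and library that the authors deposited. The submitters' processing notes name Trim Galore 0.5.0, STAR 2.4.2, featureCounts (Subread 1.4.6), DESeq2 and the build mm10. Once each library was rescaled, 100% of the deposited signal values were whole within 0.1 read, so they are counts over 1 size factor, and whole reads were recovered for edgeR and DESeq2. The ChIP signal is in the authors' own scaling, which the sources used here do not describe. A list of genes raised in primary macrophages comes from the authors' deposited log2 fold change table.

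limma 3.58.1 (R 4.3.3), with an intensity trend, was fitted to log2(value + 1) over 12 libraries with 1 mean per group and 6 residual degrees of freedom. Fold changes are therefore on the log2(value + 1) scale, which understates those of low genes. Genes with a Benjamini-Hochberg adjusted p below 0.05 were called. The alternatives were no trend, no filter, pseudocounts of 0.5 and 5, a replicate block, 8 libraries only, TMM, recomputed size factors, edgeR 4.0.16 with and without the block, DESeq2 1.42.0, and each library left out. Intervals are at 95% and floors at 3 reads over a group. The scripts were tested on simulated data. Tables and plots were made in Python 3.11.15 using pandas 2.3.3, numpy 2.4.6, scipy 1.17.1 and, for plots, matplotlib 3.10.9.

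The deviation of replicate 1 from 2 correlated between groups at 0.156 to 0.564 (median 0.268) over all 15 pairs of groups, so the numbers were taken to pair the libraries, as a hint from the data that the labels do not state.

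Counts had been planned for, and the deposited unit decided the test. The members and the 25 lists were chosen with earlier results of these data known, as were 18 panel genes. The rule for named genes took calls with a mean of at least 50 and responses that did not overlap, the panel, and from each list at most 4 genes, those of smallest p. It gave 1 called gene, so calls of the other fits and the 12 smallest p of each direction were added after the values were seen, as were the E-box and the printed sequences. Coordinates are from RefSeq GRCm38.p6, to which 16019 of 17301 genes were matched by symbol. 1 of the called genes is not reported here.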

Additional observations from a re-analysis of the deposited data

Results flagged for a closer look

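Bhlhe40 was the 1 gene whose LPS response differed between the lines by the limma test of the difference without the replicate block (14 genes did with the block), with a response of 3205 minus that of RAW264.7 of -2.46 on the log2 scale. In 3205 it had 596 and 651 normalized reads at 60 min, against 1750.2 and 1909 in RAW264.7, and in 3205 it had 1339 and 1271 at 0 min, against 727 and 659 in RAW264.7. The summed macrophage markers, which also differed between the lines, ran from 206450 to 256000 normalized reads in 3205 and from 375610 to 492120 in RAW264.7, and their part in the result was not tested. No group had the 4 libraries needed to look for a single outlying one.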

How the results depend on the processing

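The counts of calls depended on the fit. For genes with a response difference above 0 the count was 0, and it was 2 by limma without trend (Lmtk3 and Gm12643), 6 with a replicate block, 6 by edgeR with a replicate block and 9 by DESeq2. For genes with one below 0 it was 1, and 0 without trend, 8 with a replicate block, 9 by edgeR with a replicate block and 13 by DESeq2. Leaving out any 1 of the libraries in turn gave 0 genes of either kind. With no filter, pseudocounts of 0.5 and 5, 8 libraries, TMM, recomputed size factors or edgeR without the block it stayed at 0 above and 1 below 0. In limma the replicate block leaves every estimate as it is and changes only its error, while in edgeR the estimates moved too. The block changed no other call of a response difference of 3205 minus RAW264.7 named here than those printed beside the results. The cause of these changes was not tested.

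Of 120 named genes, 20 changed sign in at least 1 alternative, and none of the 28 that another fit called or that had the smallest p. The H3S31ph contrast, highest minus lowest part, was -0.11, or -0.03 with 2 parts and -0.15 when the ratio was divided by that of H3.3. With 2 libraries per group the median 95% half-width of a difference, with no adjustment over genes, was 0.90 (0.61 for genes with a mean of at least 50), and the size needed to pass after adjustment was larger, as given in the results.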
